A study of Mus musculus with 117 samples.

Results

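The peaks described here are those of trimethylated lysine 27 of histone H3 (H3K27me3) in mouse embryonic fibroblasts (MEF, taken at E13.5) that had expressed the reprogramming factors OKSM (Oct4, Klf4, Sox2 and Myc) for 4 days, called D4 below. One group carried a short hairpin RNA against Ubc9 (shUbc9) and the other a control hairpin (shCtrl). Both groups carried OKSM and were labelled as passage 1, so neither is an untreated fibroblast. The members are all peaks of the 2 H3K27me3 lists, 7307 from shUbc9 and 7236 from shCtrl cells, 14543 of the 563630 peaks in the 32 lists of the series. Each list was made by the authors from 2 replicates merged, so the peaks have no replicate spread and no test was made on them. Below, a peak is shared if it overlaps the other list by 1 bp or more, and shUbc9-only or shCtrl-only if it does not.

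H3K27me3 is written by Polycomb repressive complex 2, in which Ezh2 or Ezh1 is the enzyme and Eed and Suz12 are core subunits. It is read by Cbx proteins of Polycomb repressive complex 1 and erased by the demethylases Kdm6a and Kdm6b. In fibroblasts and embryonic stem (ES) cells it covers silent developmental genes, and in ES cells many such promoters also carry H3K4me3, a combination called bivalent. Acetylation of the same lysine (H3K27ac) marks active promoters and enhancers, and a given lysine cannot carry both marks at once. Ubc9 is the E2 enzyme that conjugates SUMO to proteins, among them chromatin regulators.

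The H3K27me3 map of shUbc9 cells and that of shCtrl cells were largely the same regions. Of the shUbc9 peaks, 5633 (77.1%) overlapped a shCtrl peak and 1674 (22.9%) did not. Of the shCtrl peaks, 5100 (70.5%) overlapped a shUbc9 peak and 2136 (29.5%) did not. The lists covered 22.3 Mb in shUbc9 and 22.73 Mb in shCtrl cells, of which 16.94 Mb was in common, 76.0% of the shUbc9 and 74.5% of the shCtrl length. Sharing was higher for H3K4me3 (88.2% of the shUbc9 and 99.2% of the shCtrl peaks) and for H3K27ac (80.5% and 79.3%, same order), and lower for H3K4me1 (51.3% and 51.1%) and H3K9me3 (54.6% and 65.9%). The lowest −log10 p in the deposited lists was 24.01 for shUbc9 and 17.01 for shCtrl, so the shCtrl list reached less significant peaks. By fold enrichment over background it did not reach lower. The lowest fold was 4.68 in shUbc9 and 5.23 in shCtrl, and the median fold 9.16 and 10.42. Restricted to peaks at or above 24.01 in both, 61.9% of the shUbc9 and 89.7% of the shCtrl peaks were shared, and the list with the larger condition-specific share was then the shUbc9 list.

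Peaks listed in a single condition were the low-ranked and narrow ones. Rank here is the order of the authors' score within a list. In the best-ranked decile, all 731 shUbc9 peaks and 99.9% of the shCtrl peaks were shared. In the last decile 38.0% of the shUbc9 and 29.3% of the shCtrl peaks were. The median rank percentile was 80.0 for shUbc9-only and 77.6 for shCtrl-only peaks, against 39.0 and 36.1 for the shared peaks of the shUbc9 and the shCtrl list. The median width was 1568 bp for shUbc9-only and 1336 bp for shCtrl-only peaks, against 2761 bp and 3152 bp for the shared peaks of those lists. Of peaks wider than 8 kb, 322 of 328 in shUbc9 and 341 of 343 in shCtrl cells were shared (98.2% and 99.4%).

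**Figure D1:**
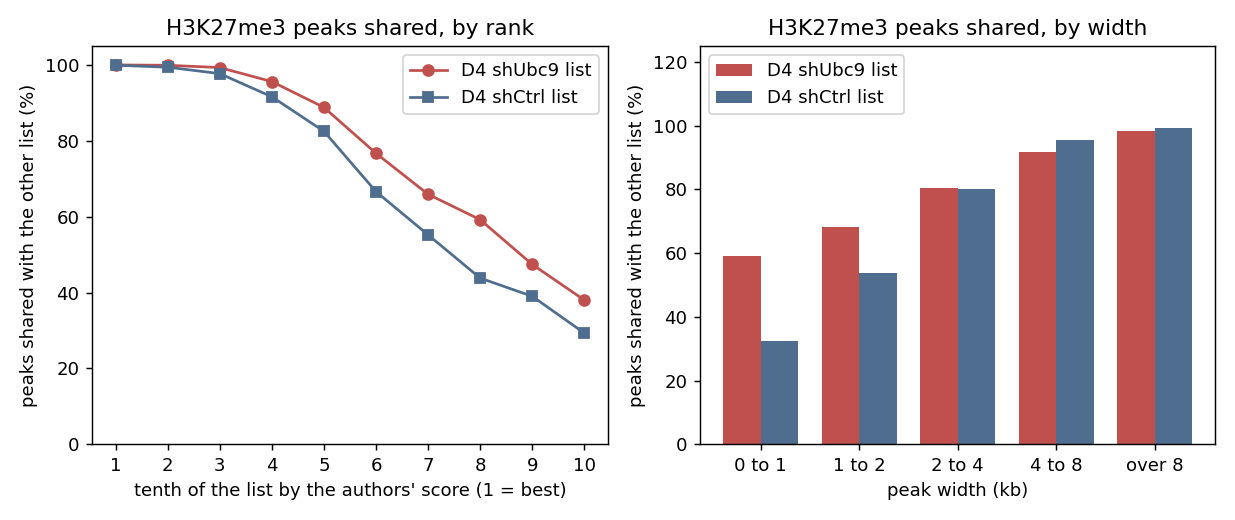
Percentage of D4 H3K27me3 peaks that overlap the other condition's list, for the shUbc9 list and the shCtrl list; left, by decile of the authors' score within each list; right, by peak width in kb. In both lists the share falls with rank, to 38.0% in shUbc9 and 29.3% in shCtrl, and peaks wider than 8 kb are shared at 98.2% and 99.4%.

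The strongest peaks lay in regions marked in both start and end states of reprogramming. The 5 best-ranked peaks of the shUbc9 list and the 5 best-ranked of the shCtrl list all overlapped H3K27me3 peaks of MEF and of ES cells and H3K4me3 peaks of ES cells. The first of the shUbc9 list was chr5:147994332-148005062 (mm9), 10.73 kb wide with a score of 1684. The first of the shCtrl list was chr10:84215050-84227545, 12.5 kb wide with a score of 1250. A region of chromosome 12 was among the 5 best of both, as chr12:74045774-74047815 at rank 4 in shUbc9 and as chr12:74045718-74049161 at rank 3 in shCtrl cells. The widest shared peak of the shUbc9 list, chr5:35715755-35739051, spanned 23.3 kb. That of the shCtrl list, chr10:42291737-42317258, spanned 25.52 kb, of which 3 shUbc9 peaks covered 25.06 kb. No gene is assigned to any peak, since no mm9 annotation was used here.

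Most shared peaks lay almost wholly inside the other list. At least 90% of the peak's own length was covered for 73.2% of the shared shUbc9 and 61.0% of the shared shCtrl peaks. In the 3867 pairs where each peak met a single peak of the other list, the median width was 2848 bp in shUbc9 and 2963 bp in shCtrl cells, and the median log2 width ratio of shUbc9 over shCtrl was -0.037. The shUbc9 peak was the wider in 1579 pairs and the narrower in 2282. A width difference of 2-fold or more was found in 139 pairs that were wider and 196 that were narrower in shUbc9 cells.

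The largest H3K27me3 domains were held by both conditions. When peaks of either list within 5 kb of each other were joined, 241 of the 5381 joined regions were 20 kb or longer, and all 241 held peaks of both lists. Joining itself makes this likely, since these regions were built from many peaks of both lists, 1468 of shUbc9 and 1300 of shCtrl. Peaks covered 5646 kb of them in shUbc9 and 5800 kb in shCtrl cells. More was covered in shUbc9 cells in 83 regions and in shCtrl cells in 155. Of the 241 regions, 234 held a MEF and 182 an ES cell H3K27me3 peak. The widest, chr7:86624891-86764215 (139.3 kb), had 109.2 kb covered in shUbc9 and 116.6 kb in shCtrl cells. In chr2:74481346-74611633 (130.3 kb), 86.1 kb was covered in shUbc9 and 101.5 kb in shCtrl cells. In chr6:52164913-52227861 (62.9 kb), 12 peaks covered 38.0 kb in shUbc9 and 16 peaks covered 51.6 kb in shCtrl cells. The shUbc9 coverage was the lower in each of these 3, and whether that exceeds replicate spread cannot be told from merged lists. The direction also depends on where the lists end. The covered length per autosome, shUbc9 over shCtrl, was 0.9093 to 1.063 as deposited and 1.188 to 1.416 with both lists at the same p. No direction is read from the joined regions.

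Condition-specific peaks often lay next to a peak of the other condition. Within 5 kb of the other list lay 630 of the 1674 shUbc9-only peaks (37.6%) and 940 of the 2136 shCtrl-only peaks (44.0%). Within 500 bp lay 266 (15.9%) of the shUbc9-only and 442 (20.7%) of the shCtrl-only peaks. More than 50 kb away lay 498 (29.7%) of the shUbc9-only and 642 (30.1%) of the shCtrl-only peaks. The best-ranked shUbc9-only peak, chr4:42929325-42929930 at rank 1035, lay 61 bp from a shCtrl peak. The best-ranked shCtrl-only peak, chr11:21891705-21892128 at rank 521, lay 135 bp from a shUbc9 peak. These 2 are therefore parts of regions that both lists hold.

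A small set of well-ranked peaks had no counterpart at all. In the better-ranked 50% of each list, a subset defined after the data were seen, 120 shUbc9 peaks (3.28% of 3653) and 210 shCtrl peaks (5.8% of 3618) had no overlap in the whole other list. Of these, 74 shUbc9-only and 109 shCtrl-only peaks lay more than 5 kb from it. H3K27me3 was also listed in MEF at 48 of the 120 shUbc9-only peaks (40.0%) and at 97 of the 210 shCtrl-only peaks (46.2%), and in ES cells at 14 (11.7%) of the shUbc9-only and 36 (17.1%) of the shCtrl-only peaks. H3K4me3 of ES cells was found at 31 (25.8%) of the shUbc9-only and 83 (39.5%) of the shCtrl-only peaks. Shared peaks of the same better-ranked 50% met these lists more often. MEF H3K27me3 lay at 2694 of 3533 in the shUbc9 and 2556 of 3408 in the shCtrl list. ES cell H3K27me3 lay at 46.6% and 45.8% of them, and ES cell H3K4me3 at 69.1% and 74.3%, same order. Median widths were 1954 bp (shUbc9-only) and 1659 bp (shCtrl-only), against 3359 bp and 3792 bp for those shared peaks. How much width adds was not tested.

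Some named examples show what these isolated regions carry. The shUbc9-only peak chr5:113917864-113923430 (5.57 kb, rank 1494) lay 24.7 kb from the nearest shCtrl peak and overlapped H3K4me3 in MEF, ES cells and both D4 groups, H3K27ac in MEF, and Sox2 in both D4 groups. The shUbc9-only peak chr4:125962899-125966411 (3.51 kb, rank 1809) lay 191.0 kb away, with H3K27ac listed in MEF and in D4 shCtrl but not in D4 shUbc9 cells. Neither region had H3K27me3 in MEF or ES cells. The shCtrl-only peak chr13:10358241-10362238 (4.0 kb, rank 1155) lay 1828.0 kb from the nearest shUbc9 peak and had H3K27me3 in MEF and ES cells and H3K4me3 in ES cells and both D4 groups. The shCtrl-only peak chr2:33464878-33474086 (9.21 kb, rank 1269), also the widest of its class, had H3K27me3 in MEF and ES cells and H3K4me3 at D4 in shUbc9 but not in shCtrl cells.

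The next comparison asks which H3K27me3 regions of D4 cells were carried over from fibroblasts and which belong to ES cells. Shared peaks were mostly fibroblast regions: 67.2% of those in the shUbc9 list and 65.3% of those in the shCtrl list overlapped a MEF H3K27me3 peak. For condition-specific peaks the share was 28.6% of shUbc9-only and 34.9% of shCtrl-only peaks. An ES cell H3K27me3 peak was overlapped by 35.2% and 35.1% of the shared peaks of the shUbc9 and shCtrl lists, by 6.15% of shUbc9-only and by 8.94% of shCtrl-only peaks. Wider peaks overlap other lists more by their width alone. Among peaks of 1708 to 3388 bp, MEF H3K27me3 was met by 61.5% and 56.0% of the shared peaks of the shUbc9 and shCtrl lists, by 28.1% of shUbc9-only and by 36.6% of shCtrl-only peaks.

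Seen from the fibroblast side, retention followed the strength of the MEF peak and was close in both conditions. Of the 11276 MEF H3K27me3 peaks, 43.1% were listed in D4 shUbc9 and 46.2% in D4 shCtrl cells, and 38.3% in both. The MEF and ES cell lists each ended at a −log10 p of 10.1, against 24.01 and 17.01 for D4 shUbc9 and shCtrl. A weak MEF or ES cell peak that is not listed at D4 may therefore still carry the mark there. In the best-ranked MEF decile 87.6% were listed in shUbc9 and 88.8% in shCtrl cells, and in the fifth decile 38.2% and 44.5%. Below it the share no longer fell evenly, and 1218 MEF peaks there were tied at a single p-value. MEF peaks kept in both D4 lists had a median width of 1939 bp, and those in neither had 883 bp. Of the kept ones, 41.30% were also H3K27me3 peaks in ES cells, against 2.39% of the MEF peaks listed in neither.

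In the 5237 ES cell H3K27me3 peaks, 50.9% were listed in D4 shUbc9 and 53.6% in D4 shCtrl cells. Of those in both D4 lists, 80.40% were MEF H3K27me3 peaks too, and of those in neither D4 list 5.96% were. The ES cell peaks in neither D4 list were often active regions at D4: 30.2% overlapped H3K27ac in shUbc9 and 33.3% in shCtrl cells, against 3.11% and 4.29%, in that order, of the ES cell peaks in both D4 lists. H3K4me3 at D4 did not separate them in the same way, at 42.6% in shUbc9 and 42.7% in shCtrl cells for the ES cell peaks in neither D4 list, and 42.9% in shUbc9 and 33.3% in shCtrl cells for those in both.

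**Figure D2:**
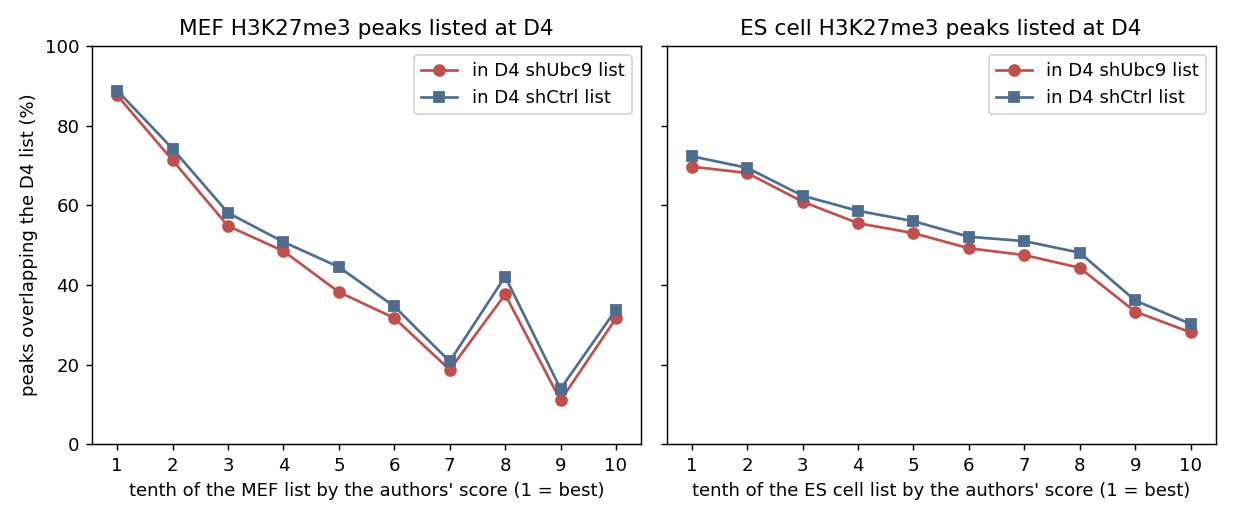
Percentage of MEF (left) and ES cell (right) H3K27me3 peaks that overlap the D4 shUbc9 list and the D4 shCtrl list, by decile of the authors' score within the MEF or ES cell list. In the first decile of the MEF list 87.6% are in the shUbc9 and 88.8% in the shCtrl list, and the lines stay close throughout.

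Regions merged over the MEF, D4 and ES cell lists were more often in both D4 lists when marked in both cell types. Of 1589 regions marked in MEF and in ES cells, 1386 (87.2%) were in both D4 lists, 26 in shUbc9 but not shCtrl, 65 in shCtrl but not shUbc9, and 112 in neither. Of 8044 regions marked in MEF but not ES cells, 1684 (20.9%) were in both D4 lists. Of 2652 regions marked in ES cells but not MEF, 322 (12.1%) were in both D4 lists. Merging itself adds to this contrast, since a wide D4 peak can join MEF and ES cell peaks that do not meet. The median width was 5272 bp for regions in all 4 lists and 1304.5 bp for MEF and ES cell regions in neither D4 list. How much of the contrast comes from merging was not tested. The widest region held by all 4 lists was chr4:115621118-115653780 (32.66 kb). Among regions of MEF and ES cells listed in shUbc9 but not shCtrl, the widest was chr15:102834552-102855777 (21.23 kb). That is the width of the region merged over the lists, not of its shUbc9 mark. The widest single shUbc9-only peak anywhere spanned 10.84 kb. The widest MEF and ES cell regions listed in neither D4 group were chr6:52126040-52132400 (6.36 kb) and chr6:52112801-52119132 (6.33 kb). A further 1265 regions were in both D4 lists but in neither the MEF nor the ES cell list. The widest of these, chr8:125255546-125278447, spanned 22.9 kb.

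Which condition held more MEF regions depended on where the lists end. Of 9633 regions marked in MEF, 416 were in the shUbc9 and not the shCtrl list, and 643 in the shCtrl and not the shUbc9 list. With both lists restricted to the same p these counts were 844 for shUbc9 and 160 for shCtrl, so the order turned round. No direction is read from them.

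Part of the H3K27me3 regions carried H3K4me3 as well, at the low end of the H3K4me3 list. In shUbc9 cells 36.3% of the shared peaks of the shUbc9 list overlapped H3K4me3 of the same cells, and in shCtrl cells 30.2% of the shared peaks of the shCtrl list did. Of shUbc9-only peaks 11.1% overlapped H3K4me3 in shUbc9 cells, and of shCtrl-only peaks 13.7% overlapped it in shCtrl cells. The H3K4me3 list of shUbc9 cells was the longer, with 18698 peaks against 16322 in shCtrl cells. With the shUbc9 list taken to the same number of best-ranked peaks, the shUbc9 share among shared peaks became 28.4%, against 27.7% for the shCtrl H3K4me3 list over the same H3K27me3 peaks. The H3K4me3 peaks at H3K27me3 had a median rank percentile of 74.1 in shUbc9 and 80.2 in shCtrl cells, against 44.7 and 45.0 for the H3K4me3 peaks elsewhere. Only 109 of 2119 such peaks in shUbc9 and 57 of 1710 in shCtrl cells were in the better-ranked 50% of the H3K4me3 list. When the better-ranked 50% of every list was used, the classes were defined anew against the better-ranked 50% of the shCtrl list. H3K4me3 of shUbc9 cells then lay at few peaks, 1.57% of the shared peaks of the shUbc9 list and 2.64% of shUbc9-only peaks. The order did not turn round with the classes above and the whole H3K4me3 list. In the better-ranked 50% of the shUbc9 list, H3K4me3 of shUbc9 cells then lay at 44.0% of shared and 19.2% of shUbc9-only peaks.

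H3K4me3 of ES cells was the commonest mark of another kind at these peaks. It was found at 55.5% and 60.3% of the shared peaks of the shUbc9 and shCtrl lists, at 14.6% of shUbc9-only and at 20.1% of shCtrl-only peaks. H3K4me3 of MEF was found at 11.6% and 12.7% of the shared peaks of those lists. Marks of heterochromatin and of SUMO proteins were rare. H3K9me3 of the same condition overlapped 0.888% of the shared shUbc9 and 0.706% of the shared shCtrl peaks. Of the 12408 SUMO-1 peaks of MEF, 1.03% met a shUbc9 and 1.21% a shCtrl H3K27me3 peak, and of the 9979 SUMO-2 peaks of MEF 0.2% and 0.261% did.

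Sox2, a reprogramming factor that binds nucleosomal DNA, was the factor found most often at H3K27me3. It overlapped 43.0% of the shared peaks of the shUbc9 list in shUbc9 cells and 42.7% of those of the shCtrl list in shCtrl cells. Klf4 overlapped 13.0% of the shared peaks of the shUbc9 list in shUbc9 cells and 10.5% of those of the shCtrl list in shCtrl cells, and Oct4 7.08% and 5.55%. The factor lists of shUbc9 cells were the longer ones, with 27514 Sox2 and 23477 Oct4 peaks, against 20197 and 16740 in shCtrl cells. With the shUbc9 lists taken to the same number of best-ranked peaks, the shUbc9 values became 37.4% for Sox2, 10.8% for Klf4 and 3.91% for Oct4, so for Sox2 and Oct4 the order of the conditions turned round. Condition-specific peaks carried less Sox2, which lay at 9.26% of shUbc9-only peaks in shUbc9 cells and at 11.7% of shCtrl-only peaks in shCtrl cells. The Sox2 peaks at H3K27me3 were strong and wide ones. Their median rank percentile was 25.1 in shUbc9 and 27.5 in shCtrl cells, and their median width 3371 bp and 3470 bp, against 1148 bp and 1101 bp for Sox2 peaks elsewhere. For Klf4 the peaks at H3K27me3 ranked low, with median percentiles of 67.7 in shUbc9 and 67.5 in shCtrl cells, and so did those of Oct4, with 67.6 and 65.4. Greater width was not particular to Sox2, and wider peaks overlap more by width alone. In shUbc9 cells the median was 1899 bp for Klf4 and 1997 bp for Oct4 peaks at H3K27me3, against 1117 bp and 1187 bp elsewhere.

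Sox2 was concentrated at the H3K27me3 peaks that also had H3K4me3. In shUbc9 cells it lay at 79.1% of the 2042 shared peaks with H3K4me3 and at 22.4% of the 3591 without. In shCtrl cells it lay at 76.5% of the shared peaks with H3K4me3 and at 28.1% of those without. The contrast was larger among condition-specific peaks, with 65.1% and 2.28% of shUbc9-only peaks in shUbc9 cells and 57.7% and 4.34% of shCtrl-only peaks in shCtrl cells, with and without H3K4me3 in that order. Such a contrast was not particular to Sox2. At the shared peaks of the shUbc9 list in shUbc9 cells, Klf4 lay at 25.7% with and 5.74% without H3K4me3, and Oct4 at 12.6% and 3.95%.

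**Figure D3:**
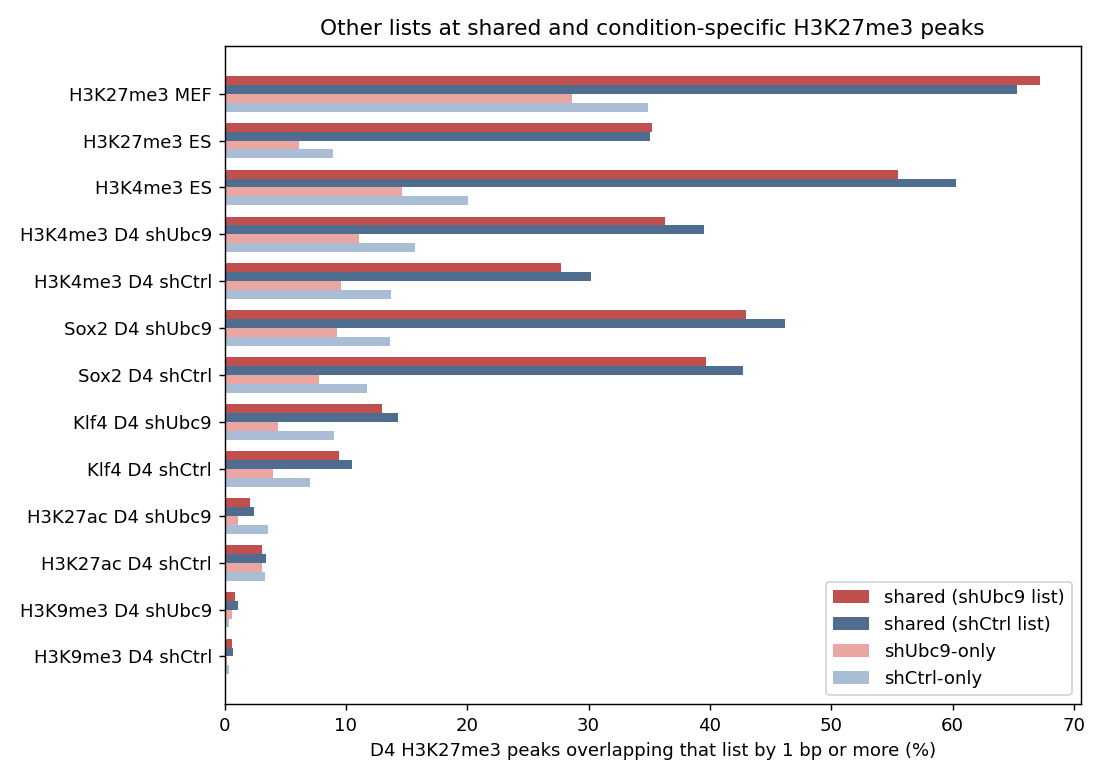
Percentage of D4 H3K27me3 peaks overlapping each other list by 1 bp or more, for shared peaks counted in the shUbc9 and in the shCtrl list, shUbc9-only peaks and shCtrl-only peaks. H3K27me3 of MEF, H3K4me3 of ES cells and Sox2 are the longest bars, and each is shorter for condition-specific than for shared peaks.

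H3K27ac lay at few H3K27me3 peaks, and mostly where H3K4me3 was listed too. It overlapped 2.06% of the shared peaks of the shUbc9 list in shUbc9 cells and 3.39% of those of the shCtrl list in shCtrl cells. In shUbc9 cells 5.63% of the shared peaks with H3K4me3 and 0.0278% of those without overlapped it, and in shCtrl cells 10.9% and 0.14%, in the same order. Of the shCtrl-only peaks with H3K4me3 in shCtrl cells, 71 of 293 (24.2%) overlapped H3K27ac there, and 0 of the 1843 without H3K4me3 did.

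At shUbc9-only H3K27me3 peaks, H3K27ac listed in a single condition was mostly that of shCtrl cells, while at shCtrl-only peaks it was split between the conditions. Among the 1674 shUbc9-only peaks, H3K27ac was listed in shUbc9 and not shCtrl at 2 peaks (0.119%) and in shCtrl and not shUbc9 at 35 (2.09%). Among the 2136 shCtrl-only peaks it was listed in shUbc9 and not shCtrl at 25 (1.17%) and in shCtrl and not shUbc9 at 20 (0.936%). At shared peaks the lean had the same direction but was smaller. H3K27ac was listed in shUbc9 alone at 34 and in shCtrl alone at 90 of those in the shUbc9 list, and at 38 and 87 of those in the shCtrl list. The direction is therefore not particular to shUbc9-only peaks. Over the whole genome, 19.5% of all shUbc9 H3K27ac peaks had no overlap in the shCtrl H3K27ac list and 20.7% of the shCtrl ones none in the shUbc9 list. With both H3K27me3 lists restricted to the same p, the counts were 5 and 57 of 2785 shUbc9-only peaks and 9 and 6 of 445 shCtrl-only peaks, for H3K27ac in shUbc9 alone and in shCtrl alone. In both settings most condition-specific peaks had no H3K27ac in either condition.

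The best-ranked shUbc9-only peak with H3K27ac in shCtrl alone was chr4:125962899-125966411, named above, whose H3K27ac peak had rank 25620 of 25719. Chosen after their values were seen, 2 regions whose H3K27ac peaks ranked better than that are named. The shUbc9-only peak chr9:62524827-62527702 (2.88 kb, rank 3947) lay 453.5 kb from the nearest shCtrl peak and met a shCtrl H3K27ac peak at rank 11601. The shCtrl-only peak chr15:82040727-82047471 (6.75 kb, rank 3401), with H3K27me3 in MEF and ES cells too, met a shUbc9 H3K27ac peak at rank 13499 of 25849.

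**Figure D4:**
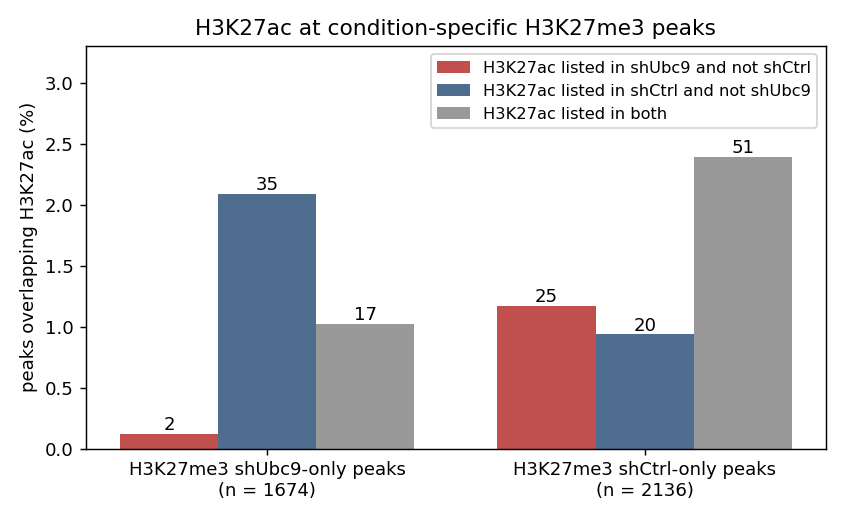
Percentage of shUbc9-only and of shCtrl-only H3K27me3 peaks that overlap a D4 H3K27ac peak listed in shUbc9 alone, in shCtrl alone or in both; the number over each bar counts peaks. Among shUbc9-only peaks 35 carry H3K27ac in shCtrl alone and 2 in shUbc9 alone.

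By chromosome, the autosomes were alike and the X chromosome had fewer peaks in shUbc9 cells. On the 19 autosomes the number of peaks in shUbc9 over that in shCtrl cells ranged from 0.9467 to 1.196. The X chromosome had 112 peaks in shUbc9 and 162 in shCtrl cells, a ratio of 0.6914, and 83 of the 162 (51.2%) were shCtrl-only, against at most 34.8% on an autosome. With both lists restricted to the same p the X ratio was 1.697, inside the autosomal range of 1.556 to 1.939. At that p, 22.7% of the 66 shCtrl X peaks were shCtrl-only, against 5.94% to 15.2% on the autosomes. Of the 83 shCtrl-only X peaks, 8 (9.64%) overlapped a MEF H3K27me3 peak, against 35.9% of the 2052 shCtrl-only peaks on autosomes. On the X the share was 50.6% of the 79 shared peaks of the shCtrl list and 3.45% of the 29 shUbc9-only peaks. A low share was therefore not particular to the shCtrl-only X peaks. Xist, the RNA that brings Polycomb marks to the inactive X, was added after the peaks were seen. It had 532.6, 638.7 and 362.4 CPM (counts scaled to a common library size) in shUbc9 and 663.9, 501.8 and 681.4 CPM in shCtrl libraries, and the groups overlapped. Its log2 fold change was -0.27 (edgeR quasi-likelihood test, Benjamini-Hochberg adjusted p = 0.264), and without shUbc9 replicate 2 it was -0.46 with an adjusted p of 0.045.

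RNA of the same 2 groups, with 3 libraries each, shows which Polycomb genes differed. Over 17001 genes tested with the edgeR quasi-likelihood test, 27.2% were called higher and 26.1% lower in shUbc9 cells at a Benjamini-Hochberg adjusted p under 0.05. Libraries held 35.9 to 56.6 M gene counts in shUbc9 and 25.1 to 46.7 M in shCtrl cells.

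The genes of the writing complex did not move together. Of 14 PRC2 genes 13 were tested, of which 3 were higher, 3 lower and 7 not called, with a median log2 fold change of 0.012. The enzyme gene Ezh2 had 39.34, 43.09 and 43.59 CPM in shUbc9 and 42.5, 37.25 and 37.75 CPM in shCtrl libraries, and the groups overlapped. Its log2 fold change was 0.10 ± 0.076 (edgeR quasi-likelihood, Benjamini-Hochberg adjusted p = 0.277). Ezh1, the other enzyme gene, fell to 43.05, 42.72 and 40.47 CPM in shUbc9, against 52.4, 60.48 and 58.9 CPM in shCtrl libraries, with no overlap (log2 -0.45, edgeR Benjamini-Hochberg adjusted p = 0.000789). Eed, the subunit that binds H3K27me3, rose to 56.74, 56.05 and 66.19 CPM in shUbc9, against 46.34, 48 and 43.1 CPM in shCtrl libraries (log2 0.38, edgeR Benjamini-Hochberg adjusted p = 0.00383). Suz12 had a log2 fold change of 0.13 with an edgeR Benjamini-Hochberg adjusted p of 0.122.

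Epop, a PRC2-associated protein, had the largest difference among the PRC2 genes. It had 16.06, 13.35 and 18.29 CPM in shUbc9, against 5.035, 5.49 and 5.132 CPM in shCtrl libraries. The groups did not overlap, at a log2 fold change of 1.60 (edgeR quasi-likelihood, Benjamini-Hochberg adjusted p = 1.62e-05). The other called members were Mtf2, which was higher, and Phf1 and Phf19, which were lower, all of them proteins that help recruit PRC2 to chromatin.

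Of the erasers, neither passed the test. Kdm6a had a log2 fold change of -0.11 (edgeR Benjamini-Hochberg adjusted p = 0.154). Kdm6b had 27.46, 29.93 and 16.92 CPM in shUbc9 and 43.14, 20.08 and 43.12 CPM in shCtrl libraries, which overlapped (log2 -0.50, edgeR Benjamini-Hochberg adjusted p = 0.171). Without shCtrl replicate 2 its log2 fold change was -0.79 and the adjusted p 0.0107.

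Among 21 PRC1 genes, all tested, 7 were higher, 9 lower and 5 not called, with a median log2 fold change of -0.093. Cbx6, a chromodomain reader, fell to 109.4, 105.5 and 94.94 CPM in shUbc9, against 275.6, 247.6 and 276.7 CPM in shCtrl libraries, with no overlap (log2 -1.37, edgeR Benjamini-Hochberg adjusted p = 3.21e-06). Pcgf2, a core ring-finger subunit, had 8.183, 9.249 and 7.793 CPM in shUbc9, against 20.57, 13.24 and 20.77 CPM in shCtrl libraries (log2 -1.10, edgeR Benjamini-Hochberg adjusted p = 0.000585).

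**Figure D5:**
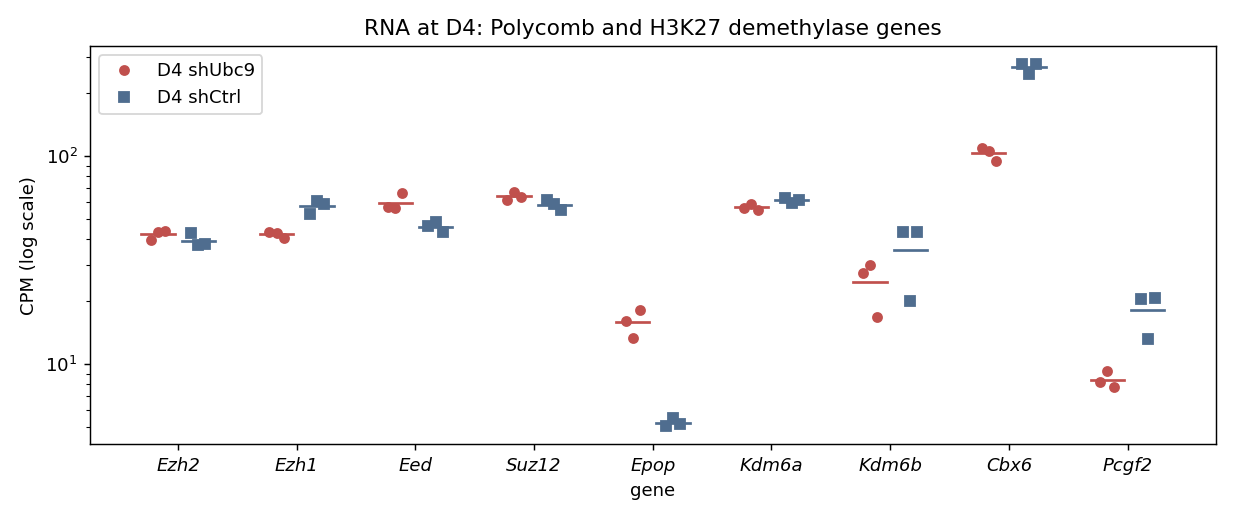
CPM (counts scaled to a common library size) on a log axis in each D4 library, shUbc9 left of shCtrl for each gene, for PRC2 genes (Ezh2, Ezh1, Eed, Suz12, Epop), the demethylase genes Kdm6a and Kdm6b, and PRC1 genes (Cbx6, Pcgf2); points are libraries and lines their means (n = 3 each). Ezh2 overlaps between groups, while Epop is higher and Cbx6 and Pcgf2 are lower in every shUbc9 library.

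Gene families that are known Polycomb targets in many cells were mostly lower in shUbc9 cells. Of 39 Hox genes 35 passed the count filter, of which 1 was higher, 28 were lower and 6 not called, with a median log2 fold change of -0.768 against -0.006 over all genes tested. For these counts and those below, the shares over all genes tested were 27.2% higher and 26.1% lower. Of 72 other developmental transcription factor genes 41 passed the filter, of which 2 were higher, 31 lower and 8 not called (median -0.738). Fibroblast markers moved the same way, with 9 of 10 lower and a summed level of 19100 to 21290 CPM in shUbc9 and 27070 to 38860 CPM in shCtrl libraries. All 10 macrophage markers were higher, with sums of 204.3 to 227.6 CPM in shUbc9 and 127.9 to 134.3 CPM in shCtrl libraries. Of 9 tested epithelial markers 4 were higher and 2 lower, with sums of 296.3 to 312.1 CPM in shUbc9 and 212.8 to 217.2 CPM in shCtrl libraries. That difference rested on Dsp, a desmosome gene, with 137.8, 138.6 and 124.7 CPM in shUbc9 and 38.02, 35.05 and 39.04 CPM in shCtrl libraries. Without it the sums of the other 8 overlapped, at 157.7 to 187.4 CPM in shUbc9 and 173.7 to 180.5 CPM in shCtrl libraries. Of 10 pluripotency markers 4 passed the filter, of which Nanog and Sall4 were higher, Tfcp2l1 lower and Zfp42 not called, with overlapping sums of 2.743 to 4.926 CPM in shUbc9 and 2.859 to 3.546 CPM in shCtrl libraries. The part of these marker differences in the H3K27me3 and RNA values was not tested, and in bulk samples fewer cells of a type and less RNA per cell cannot be told apart.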

How the data were processed

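For ChIP-seq, chromatin was fixed with formaldehyde and, for histone marks, sonicated, per the labels' protocols; D4 factor ChIP used MNase digestion. The authors deposited 1 peak list per antibody and condition, from both replicates merged, on mm9. Its columns hold a score, a ratio (fold enrichment over background) and −log10 p and q, laid out by the authors as MACS2 writes them; the score was 10 times the −log10 p, rounded down, in every list. Bowtie and bedtools 2.19.1 are further tools named in the submitters' processing notes, which state no peak threshold. Repeated lines were removed from the 2 lists that had them, MEF and ES cell H3K27me3. Overlaps were computed in Python 3.11.15, checked on simulated intervals. Ties in score were ordered by width. Ranks were not compared between lists.

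RNA is a deposited read count per gene, made by the authors with STAR 2.5.0a and featureCounts per the submitters' processing notes. The test was edgeR 4.0.16 quasi-likelihood, two-sided, with TMM and filterByExpr (minimum count 10), at a Benjamini-Hochberg adjusted p under 0.05, and was tested on simulated data. CPM are counts scaled to effective library size. Symbols matched 24191 of 26301 identifiers. DESeq2 1.42.0 was an alternative. Nothing in the labels ties replicates to separate cultures, so the p-values cover library-to-library spread, which may be technical.

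Named peaks are the 5 best-ranked and 5 widest per class and the widest per pattern, a selection of which is given; named genes are Ezh1, Ezh2, Eed, Suz12, Kdm6a, Kdm6b and the Polycomb genes with the smallest p, with a few left out as not reported here. The members and lists were chosen with earlier results of these data known. Inputs and ATAC-seq were not analysed here.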

Additional observations from a re-analysis of the deposited data

How the results depend on the processing

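The share of H3K27me3 peaks found in the other list kept its order, higher in shUbc9 than in shCtrl, under each planned setting. It was 85.5% of shUbc9 and 78.4% of shCtrl peaks when only the better-ranked 50% of both lists was compared, 74.0% and 66.7% when 50% of a peak's own length had to be covered, and 76.0% and 73.9% when peaks within 5 kb were joined, in that order. Restricting both lists to the same p, chosen after seeing the data, turned the order round, to 61.9% of shUbc9 and 89.7% of shCtrl peaks. The regions in both D4 lists and in neither MEF nor ES cells then numbered 752 instead of 1265. Of the alternative values for single peak shares, pattern counts and genes, 145 stayed within the margin set for their kind of value or kept their call. Another 62 moved further, and 2 gene calls (Kdm6b and Xist) were gained with 1 library left out. For peak shares the margin was a 95% interval that takes peaks as independent units, so it is a yardstick and not a test. All 62 that moved were peak values, and most of the 145 that stayed were gene values. Among the alternatives for the main sharing percentages and the count of genes called, 14 stayed and 8 moved. All 8 were sharing percentages. No peak list could be made without 1 replicate, since replicates are merged. In RNA, 9051 genes were called, and 7281 to 8937 with 1 library left out, 8473 with DESeq2, 8835 with library sizes alone and 9005 with no filter. With a replicate block 7497 were called, but libraries of the same replicate number did not deviate together, so the numbers were not used as pairs. Merged peaks give no measure of spread, which limits every peak difference above to a description.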
